A study of Mus musculus with 45 samples.

Results

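Hox genes were examined by genomic cluster and by paralog group in the colonic epithelium of control, obese and formerly obese mice. Members were all genes of the RNA-seq count table whose symbol is Hoxa, Hoxb, Hoxc or Hoxd followed by a number, which gave 39 of 24918 entries. They comprised 11 genes of cluster a on chromosome 6, 10 of cluster b on chromosome 11, 9 of cluster c on chromosome 15 and 9 of cluster d on chromosome 2. Every mouse was a male C57BL/6 mouse that entered its regimen at 6 weeks of age. The 5 control mice (LF) ate a 10% fat diet for 20 weeks, and the 5 obese mice (HF) ate a 60% fat diet for 20 weeks. The 5 formerly obese mice (HFLF) ate the 60% fat diet for 15 weeks and then the 10% fat diet for 5 weeks. Epithelium was released with EDTA from the whole colon, so a library was not split by position along the colon. How much each position gave to a library is not known.

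Hox genes encode homeodomain transcription factors that give cells their position along the body axis. Within a cluster the genes lie in the order of the body regions in which they are first used, from anterior genes for the hindbrain to posterior genes for the hindgut, genitalia and digits. Paralogs, which carry the same number in different clusters, descend from one ancestral gene and often act redundantly. HOX proteins bind DNA together with TALE cofactors (the PBX, MEIS and PREP families), and Polycomb and Trithorax group proteins keep the clusters silent or active. In the adult gut, posterior HOX proteins and the related CDX factors remain present in the epithelium.

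Libraries held 15230391 to 22762095 gene counts, with formerly obese replicate 3 the deepest. Hox genes took 0.066% to 0.090% of the counts of a library. Levels are given as CPM, counts scaled to one common library size with TMM factors (trimmed mean of M values, which even out composition between libraries), with the SD over 5 mice. Levels of different genes are compared only per kilobase (kb) of exon. Epithelial markers were abundant, with a summed level of the 6 markers of 9531 to 11370 CPM, whereas 6 smooth muscle markers summed to 0.222 to 2.71 CPM and 2 of 3 adipocyte markers were at 0 in every library. Of the 39 members, 28 passed the filter on low counts, and each of these had a count in all 15 libraries. The 11 others were the 9 members of cluster c, Hoxb1 and Hoxd1. Control replicate 2 stood apart from the other control mice. It had the lowest control level in 7 of the 8 genes from Hoxb2 to Hoxb9. It had the highest control level in 6 of the 8 tested genes of cluster a below group 10. Hox calls that were lost without it are named below, and some values are given without it.

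The clusters differed widely in level, and one gene, Hoxb13, made up about as much as all other members together. In control mice, the summed Hox level was 469 ± 26.3 CPM per kb, of which cluster b took 72.6% ± 1.51, cluster a 18.9% ± 1.28 and cluster d 8.52% ± 0.58 (SD, n = 5). Hoxb13 alone took 54.9% ± 2.39 of the summed level in control mice, 52.7% ± 3.06 in obese mice and 49.7% ± 2.25 in formerly obese mice. The summed level was 442.6 ± 26.8 CPM per kb in obese mice and 404 ± 29.1 CPM per kb in formerly obese mice. Shares of one total move together, so these percentages are descriptions and were not tested.

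**Figure D1:**
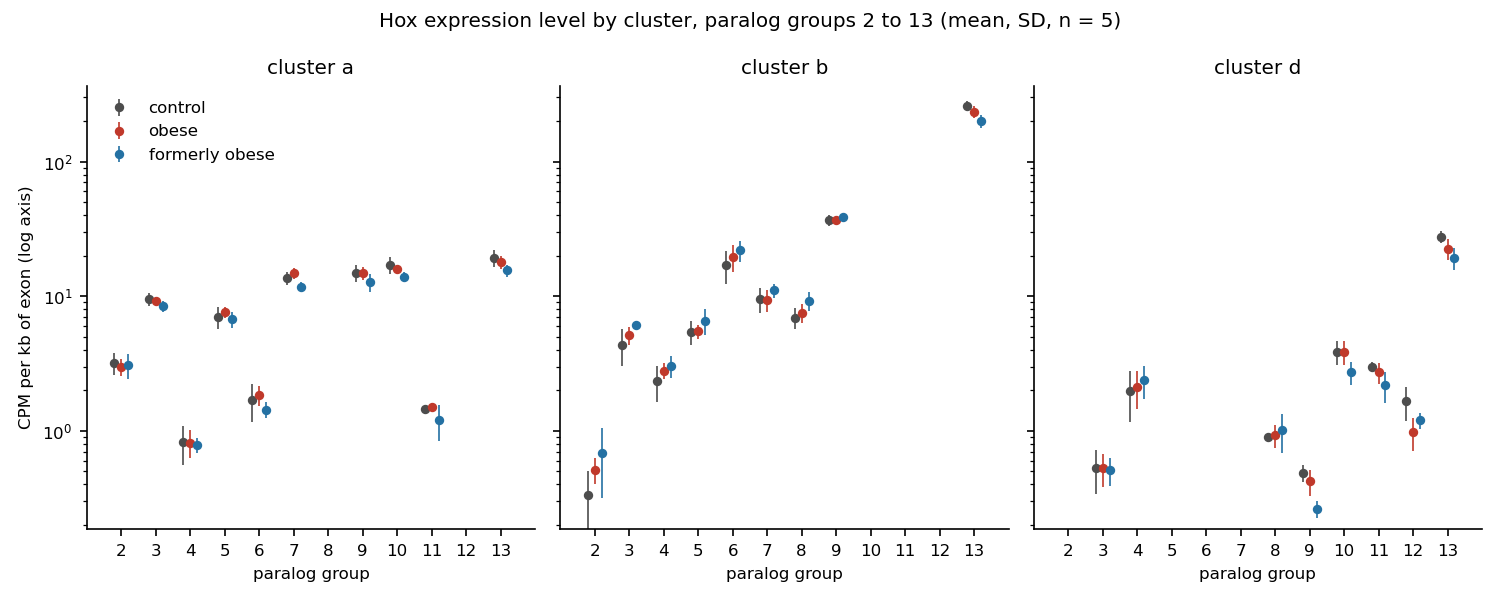
Level of the tested Hox genes of paralog groups 2 to 13 in CPM per kb of exon (log axis) against paralog group, in 1 panel for each of clusters a, b and d. Points are means of 5 mice and bars are SD, with control in grey, obese in red and formerly obese in blue. The group 13 gene stands highest in each cluster, with Hoxb13 at 258 CPM per kb in control mice against 27.7 for Hoxd13 and 19.3 for Hoxa13.

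In all 3 expressed clusters the group 13 gene had the highest level per kb in all 15 libraries. Hoxb13, which marks the most caudal epithelium and the prostate, stood at 258 ± 21.8 CPM per kb in control mice. Hoxd13 and Hoxa13, which pattern the digits and the caudal end of the gut, stood at 27.7 ± 2.68 and 19.3 ± 2.74 CPM per kb. Hoxb9 came next within cluster b at 36.6 ± 3.34 CPM per kb, followed by Hoxb6 at 17.0 ± 4.69 CPM per kb. In cluster a, Hoxa10 at 17.1 ± 2.45, Hoxa9 at 14.9 ± 2.25 and Hoxa7 at 13.65 ± 1.51 CPM per kb followed Hoxa13, and each was within 1 SD of the next. Position in a cluster did not order the levels alone. Hoxa4 (0.82 ± 0.26 CPM per kb) and Hoxa6 (1.70 ± 0.54 CPM per kb) lay below their neighbours Hoxa3 (9.51 ± 1.05) and Hoxa5 (7.004 ± 1.33), and Hoxa11 stood at 1.44 ± 0.10 between Hoxa10 and Hoxa13. Cluster d was low apart from Hoxd13, from 0.49 ± 0.07 CPM per kb for Hoxd9 to 3.85 ± 0.77 for Hoxd10 among its other tested genes.

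Cluster c gave almost no counts. Its 9 genes together had 14 counts over all 15 libraries, spread over 7 libraries, and none had more than 2 counts in a library. Hoxc9, Hoxc11, Hoxc12 and Hoxc13 had 0 counts in every library, where 0 counts allow a level of up to 0.132 to 0.197 CPM per gene at these depths (3 counts of the library total, counting error only). Hoxc6 had the highest level of the cluster, 0.02 CPM per kb in obese mice, from 1 count in control replicate 1, 2 in obese replicate 3, 1 in obese replicate 5 and 1 in formerly obese replicate 4. Hoxb1 had 2 counts in 1 formerly obese library, and Hoxd1, at the anterior end of cluster d, had 15 counts over 10 libraries.

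In most paralog groups one cluster had the highest member in every library. Cluster a led groups 2, 3 and 10 in every library. Hoxa2, which patterns the hindbrain, gave 90.5% ± 4.03 of the per-kb level of group 2 in control mice. Hoxa3, needed for the thymus and parathyroid, gave 66.4% ± 5.99 of group 3, and Hoxa10 gave 81.5% ± 3.60 of group 10. Cluster b led groups 4, 6, 8, 9 and 13 in every library, with Hoxb4 at 46.2% ± 5.33, Hoxb6 at 90.5% ± 3.98, Hoxb8 at 88.4% ± 1.88, Hoxb9 at 70.3% ± 4.49 and Hoxb13 at 84.6% ± 0.98 of the control level of their groups. Cluster d led group 11 through Hoxd11 in 14 of 15 libraries and was the whole of group 12, because Hoxd12 is the expressed member of a pair with Hoxc12. Groups 5 and 7 were shared between clusters a and b, with Hoxa5 ahead of Hoxb5 in 13 of 15 libraries and Hoxa7 ahead of Hoxb7 in 12 of 15.

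The lead of cluster a in groups 3, 5 and 7 was narrowest in formerly obese mice. Hoxa7 made up 59.1% ± 6.86 of group 7 in control mice, 61.6% ± 3.67 in obese mice and 51.5% ± 3.36 in formerly obese mice, and Hoxa3 made up 66.4%, 62.1% and 55.9% of group 3 in the same order. Within group 13 the makeup hardly moved, with Hoxb13 at 84.6% ± 0.98, 85.2% ± 1.17 and 85.2% ± 0.35 of the group in control, obese and formerly obese mice.

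Formerly obese mice were compared with control mice, which ate the same 10% fat diet in the last 5 weeks. Of the 28 tested Hox genes, 9 were called (32.1%), 7 of them lower and 2 higher, against 3.72% of all 12961 genes tested (1.87% lower, 1.85% higher). None of these 9 genes was called in obese against control mice. Calls required more than a 1.2-fold difference either way, an unadjusted p under 0.01 and an adjusted p under 0.25 in edgeR's quasi-likelihood test. At an adjusted p under 0.05 there were 3 Hox genes (Hoxb13, Hoxd9 and Hoxd13), against 2.18% of all genes. Changes are given below as log2 change, the log2 ratio of the group means in that fit. The direction is described here by cluster and position together. All 8 tested genes of groups 10 to 13 had lower levels, as had 50.2% of all genes, and 6 of them were called, with a median log2 change of -0.41. All 8 genes from Hoxb2 to Hoxb9 had higher levels, as had 49.8% of all genes, and 2 of them were called, with a median of 0.37. These sets were not named in the plan, so their counts are descriptions and were not tested. Their borders matter, since Hoxb9 (0.09) is included while Hoxa9 (-0.24) and Hoxd9 (-0.89) are in neither set. The median over all genes tested was -0.001. In groups 10 to 13 the 8 genes stayed lower in all 24 alternative analyses (other tools, scalings and filters, and each library left out), with medians from -0.43 to -0.35, whereas the number called was 2 without control replicate 2 and 3 without formerly obese replicate 1 or replicate 3. The count of 9 depended on single libraries and was 3 without control replicate 2, 4 without formerly obese replicate 1, 5 without formerly obese replicate 3 or replicate 5, and 11 without formerly obese replicate 2. The values below are from whole epithelium, in which fewer cells of a type and less RNA per cell cannot be told apart.

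**Figure D2:**
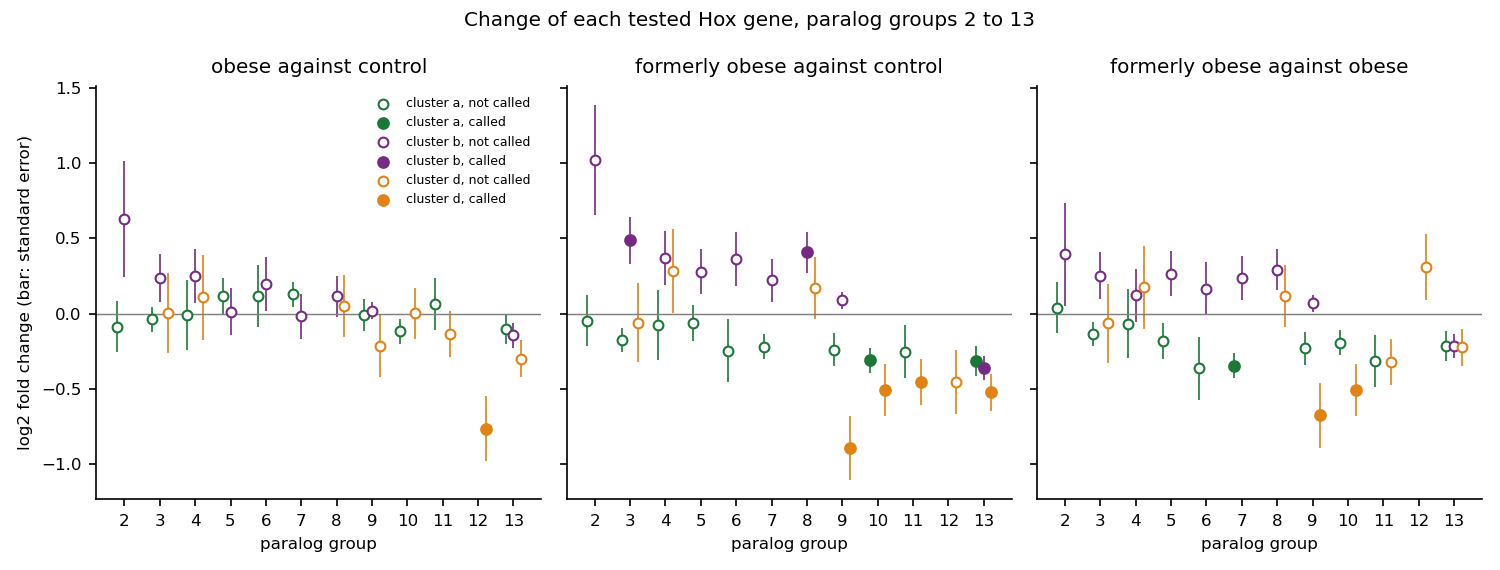
Log2 change of each tested Hox gene of paralog groups 2 to 13 against its paralog group in the 3 comparisons, with clusters a in green, b in purple and d in orange. Bars are standard errors from the edgeR fit, and filled points are called genes. In formerly obese against control mice, the 8 genes of groups 10 to 13 lie below 0 (-0.52 to -0.25) and Hoxb2 to Hoxb9 lie above 0 (0.09 to 1.02).

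In cluster b, the posterior end and the rest differed from control in opposite directions in formerly obese mice. Hoxb13 (mm10, chr11:96194361-96196599) stood at 339, 399.7, 319, 349 and 359 CPM in control mice, at 311, 371, 286, 301 and 329 CPM in obese mice and at 268, 299, 231, 308 and 269.5 CPM in formerly obese mice. Every formerly obese mouse was below every control mouse, a separation found downward in 1.87% of all genes, and the obese mice lay between and overlapped both. Hoxb13 fell in formerly obese against control mice (log2 change -0.36, SE 0.08; edgeR adjusted p = 0.0303) and kept this call in all 24 alternatives.

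Hoxb3 and Hoxb8 were the called genes of the cluster that rose. Hoxb3, which acts in the hindbrain and pharyngeal arches, stood at 22.7, 10.3, 19.1, 12.7 and 16.4 CPM in control mice, at 23.9, 16.3, 19.9, 18.2 and 17.5 CPM in obese mice and at 24.4, 21.5, 21.1, 23.6 and 23.4 CPM in formerly obese mice. Control replicates 2 and 4 were the low ones and control replicate 1 reached into the formerly obese range. The log2 change was 0.49 (SE 0.16; edgeR adjusted p = 0.119), and the call was lost when control replicate 2, 4 or 5 or formerly obese replicate 1, 4 or 5 was left out and when only the libraries of these groups entered the fit. Hoxb8, known from thoracic patterning and blood progenitors, stood at 19.4, 13.3, 22.1, 17.3 and 19.6 CPM in control mice, at 21.8, 17.4, 24.5, 18.3 and 17.4 CPM in obese mice and at 29.9, 19.1, 23.3, 24.0 and 25.4 CPM in formerly obese mice. Formerly obese replicate 1 was the highest, and 4 of the 5 formerly obese mice exceeded all control mice. The log2 change was 0.41 (SE 0.13; edgeR adjusted p = 0.126), and the call was lost when control replicate 1, 2 or 4 or formerly obese replicate 1, 3, 4 or 5 was left out. Without control replicate 2 the log2 change was 0.31, and without formerly obese replicate 1 it was 0.32.

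The other genes of cluster b did not pass the test. Hoxb2, a low gene with 3 to 37 counts per library, had the greatest difference, with 0.436, 0.196, 0.868, 0.431 and 0.772 CPM in control mice against 2.16, 0.752, 1.02, 0.713 and 0.905 CPM in formerly obese mice (log2 change 1.02, SE 0.37; edgeR adjusted p = 0.159). It was called when control replicate 3 or 5 or formerly obese replicate 2 or 4 was left out. Hoxb4, Hoxb5, Hoxb6 and Hoxb7 had log2 differences of 0.37, 0.28, 0.36 and 0.22, and Hoxb9, the most abundant of these genes, differed by 0.09 (SE 0.06). Besides control replicate 2, the lowest control mouse in 7 of these 8 genes, control replicate 5 was the highest in 5 and formerly obese replicate 1 the highest of its group in 6. The summed level of the 8 genes was 147 to 213 CPM in control, 181 to 219.8 CPM in obese and 204 to 238 CPM in formerly obese mice. All 8 genes stayed higher whichever library was left out, with medians from 0.27 without control replicate 2 to 0.46 without control replicate 5, while the number called ranged from 0 to 3 and was 0 without control replicate 2, control replicate 4, formerly obese replicate 1 or formerly obese replicate 5.

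In cluster d, all 5 tested genes from Hoxd9 to Hoxd13 had lower levels in formerly obese mice, 4 of them called, with a median log2 change of -0.51. Hoxd13 (chr2:74668310-74671599) stood at 76.4, 79.6, 68.1, 62.3 and 69.2 CPM in control mice, at 63.5, 72.9, 50.6, 53.8 and 48.2 CPM in obese mice and at 50.3, 58.1, 41.6, 58.6 and 39.02 CPM in formerly obese mice. Every formerly obese mouse was below every control mouse. Hoxd13 fell by 0.52 on the log2 scale (SE 0.12; edgeR adjusted p = 0.0356) and kept the call in all 24 alternatives.

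Hoxd9, a gene of lumbar patterning with 8 to 19 counts per library, had the greatest fall. It stood at 1.06, 1.24, 0.930, 0.862 and 1.03 CPM in control mice, at 1.13, 0.978, 0.649, 0.749 and 0.901 CPM in obese mice and at 0.583, 0.627, 0.490, 0.603 and 0.452 CPM in formerly obese mice. Formerly obese mice overlapped neither control nor obese mice. The log2 change against control was -0.89 (SE 0.22; edgeR adjusted p = 0.0385), a call that held in all 23 alternatives in which the gene was tested.

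Hoxd10 and Hoxd11, which act in the hind limb and lumbosacral region, fell less firmly. Hoxd10 stood at 8.91, 7.99, 6.88, 5.17 and 6.63 CPM in control mice, at 8.62, 8.01, 5.37, 5.86 and 7.75 CPM in obese mice and at 5.24, 5.64, 4.76, 5.97 and 3.45 CPM in formerly obese mice. Control replicate 4 was the one control mouse within the formerly obese range (log2 change -0.51, SE 0.17; edgeR adjusted p = 0.141). Hoxd11 stood at 13.3, 13.2, 12.8, 10.7 and 12.7 CPM in control mice, at 12.8, 14.2, 9.26, 10.9 and 9.97 CPM in obese mice and at 7.63, 12.3, 8.37, 11.02 and 6.503 CPM in formerly obese mice. Formerly obese replicates 2 and 4 reached the lowest control value, and the log2 change was -0.45 (SE 0.15; edgeR adjusted p = 0.136). Both calls were lost when control replicate 1, 2, 3 or 5 or formerly obese replicate 1, 3 or 5 was left out, and when only the libraries of these groups entered the fit. The Hoxd10 call was also lost without obese replicate 2 or 5, and the Hoxd11 call without obese replicate 1 or 4, which enter only through the shared spread.

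The anterior genes of cluster d were not called. Hoxd4 and Hoxd8 had log2 differences of 0.28 (SE 0.28) and 0.17 (SE 0.21), and Hoxd3, whose locus spans that of Hoxd4, differed by -0.06 (SE 0.26). The summed level of Hoxd10 to Hoxd13 was 83.3 to 105 CPM in control, 67.3 to 98.2 CPM in obese and 52.5 to 78.7 CPM in formerly obese mice, so that the formerly obese and control sums did not overlap.

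In cluster a, 10 of 11 genes had lower levels in formerly obese than in control mice, 2 of them called, with a median log2 change of -0.22. Hoxa10, which patterns the lumbar region and the uterus, stood at 50.1, 66.2, 47.1, 56.1 and 49.5 CPM in control mice, at 50.01, 51.8, 45.5, 47.7 and 53.1 CPM in obese mice and at 38.8, 46.4, 40.7, 43.7 and 47.4 CPM in formerly obese mice. Control replicate 2 was the highest, and only formerly obese replicate 5 reached the lowest control mouse (log2 change -0.31, SE 0.08; edgeR adjusted p = 0.0632). Without control replicate 2 the log2 change was -0.23 and the call was lost.

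Hoxa13 stood at 26.1, 30.9, 22.2, 24.9 and 22.2 CPM in control mice, at 27.2, 24.1, 20.9, 21.3 and 24.2 CPM in obese mice and at 19.7, 21.1, 17.3, 20.8 and 22.7 CPM in formerly obese mice. The log2 change was -0.31 (SE 0.10; edgeR adjusted p = 0.109), with formerly obese replicate 5 above the 2 lowest control mice. Hoxa13 has the highest GC content of the 39 genes (68.1% of its exons), and its log2 change was -0.15 (adjusted p = 0.612) once each library's trend with GC content was removed. Its call was also lost without control replicate 1, control replicate 2, formerly obese replicate 1 or formerly obese replicate 3.

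Other genes of cluster a were not called against control. Hoxa7, Hoxa9 and Hoxa3 differed by -0.22, -0.24 and -0.17 on the log2 scale, with edgeR unadjusted p-values of 0.0194, 0.0411 and 0.0439. Hoxa2, Hoxa4 and Hoxa5 lay between -0.07 and -0.05, each within 1 SE of 0. Hoxa11 shares 568 exon bases (24.8% of its exons) with the antisense gene Hoxa11os, which stood at 163 ± 49.3 CPM against 3.29 ± 0.23 CPM for Hoxa11 in control mice, and the strand setting of the authors' count is not known, so its log2 difference of -0.25 (SE 0.17) is uncertain.

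**Figure D3:**
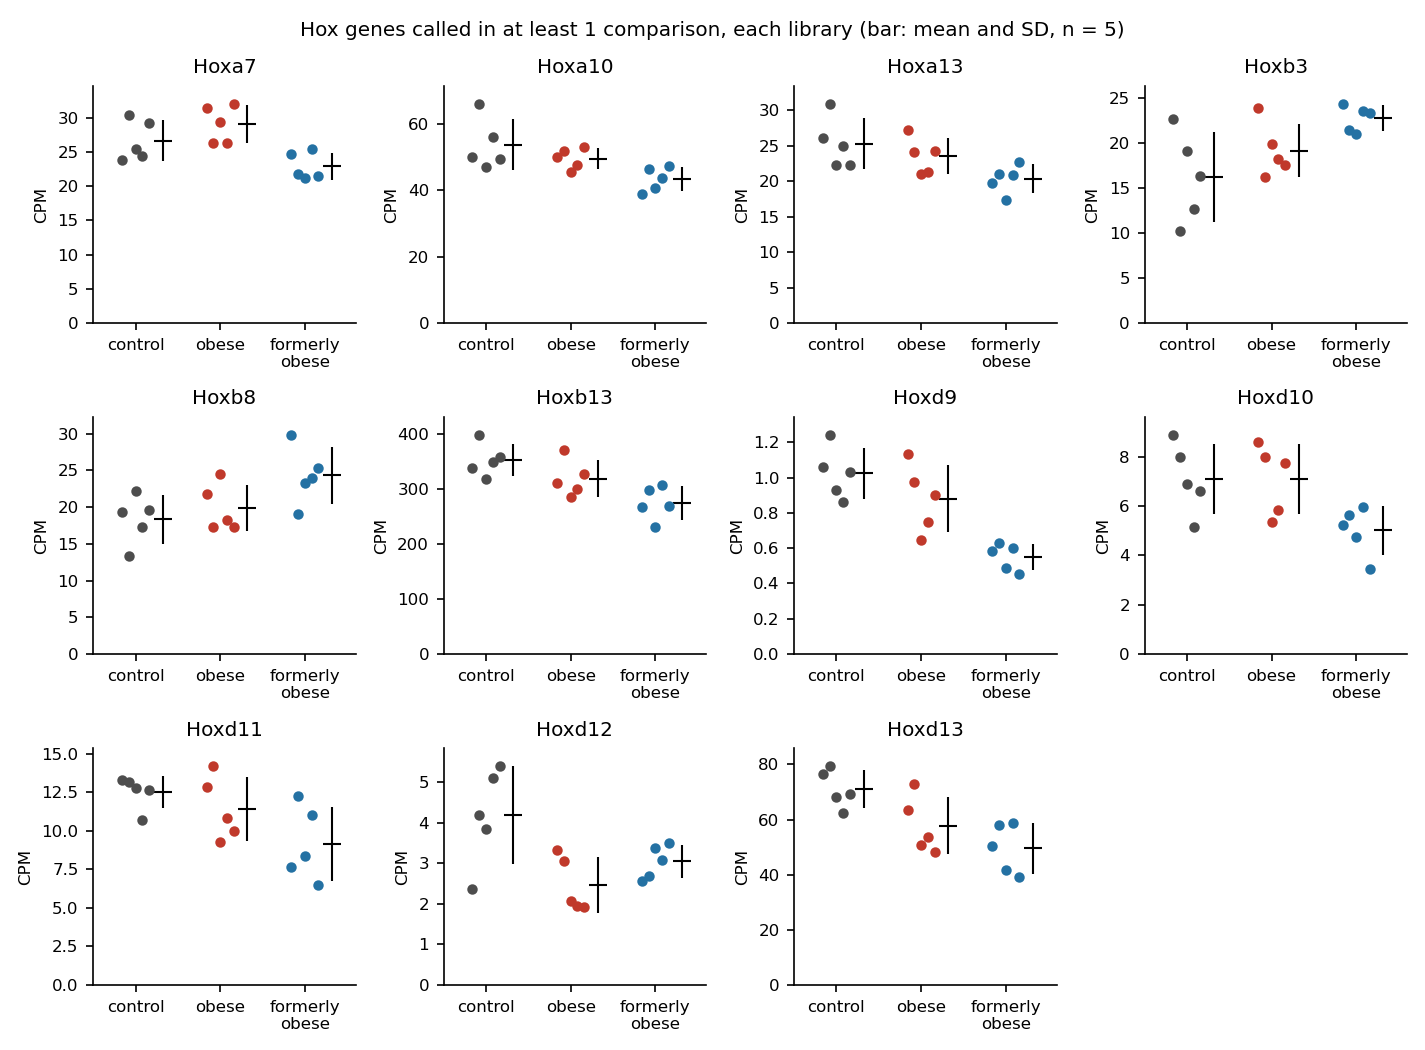
Level in CPM (axis from 0) of the 11 Hox genes called in at least 1 comparison, in each of the 5 control, 5 obese and 5 formerly obese libraries, with the mean and SD as a bar. The formerly obese points lie below all control points for Hoxb13, Hoxd9 and Hoxd13 and below all obese points for Hoxa7 and Hoxd9.

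Across paralog groups, groups 13 and 10 were those in which every tested member was called in formerly obese against control mice. Hoxa13, Hoxb13 and Hoxd13 had log2 changes of -0.31, -0.36 and -0.52, and Hoxa10 and Hoxd10 of -0.31 and -0.51. The test called 1 of 2 in group 11 (Hoxd11) and 0 of 1 in group 12, where Hoxd12 differed by -0.45 (SE 0.21; edgeR adjusted p = 0.286) and was called only without control replicate 1 (-0.61). Group 9 was split, with Hoxd9 called lower, Hoxa9 at -0.24 and Hoxb9 at 0.09. Groups 3 and 8 each held 1 called gene, both from cluster b and both higher. In group 3, Hoxb3 rose while Hoxa3 and Hoxd3 stood at -0.17 and -0.06. In groups 5, 6 and 7, the member of cluster b was higher (0.28, 0.36 and 0.22) and the member of cluster a lower (-0.06, -0.25 and -0.22), and none of these passed the test. Groups 2 and 4 held no called gene. Whether paralogs of one group differed from each other in their change was not tested.

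Obese mice were set against control mice to ask what differs while the high-fat diet lasts. Here 1 of 28 tested Hox genes was called (3.57%), Hoxd12, against 1.58% of all genes tested (0.864% lower). Hoxd12, a gene of limb patterning, stood at 2.37, 4.19, 3.84, 5.11 and 5.40 CPM in control mice, at 3.33, 3.06, 2.06, 1.93 and 1.92 CPM in obese mice and at 2.56, 2.69, 3.38, 3.07 and 3.51 CPM in formerly obese mice. Control replicate 1 lay within the obese range and the other control mice above it. The log2 change was -0.76 (SE 0.22; edgeR adjusted p = 0.184), and the call was lost without control replicate 2 or 5 or without obese replicate 3, 4 or 5. Hoxd13 had a log2 difference of -0.30 (SE 0.12; edgeR adjusted p = 0.391) and was called without obese replicate 2 (-0.39). Of the 8 tested genes in groups 10 to 13, 6 were lower, with a median of -0.12, and of the 8 genes from Hoxb2 to Hoxb9, 7 were higher, with a median of 0.16. Single libraries moved these medians by more than 1.5 times. For Hoxb2 to Hoxb9 the median was 0.05 without control replicate 2, with 5 of 8 higher, and 0.05 without obese replicate 3, with 6 of 8 higher. For groups 10 to 13 it was -0.06 and -0.08 without the same libraries. Over all genes 49.9% were lower and 50.1% higher, with a median of 0. Hoxb13 differed by -0.14 (SE 0.08), and cluster a ran from -0.12 for Hoxa10 to 0.13 for Hoxa7.

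Formerly obese mice were also compared with obese mice, from which they differed in the diet of the last 5 weeks. In this comparison 3 of 28 Hox genes were called (10.7%), all lower in formerly obese mice, against 2.65% of all genes tested (1.42% lower). Hoxa7, a thoracic patterning gene, stood at 31.4, 26.3, 29.4, 26.3 and 32.1 CPM in obese mice and at 24.6, 21.8, 21.1, 25.5 and 21.4 CPM in formerly obese mice, without overlap (as 1.89% of all genes had downward), and at 23.9, 30.4, 25.4, 24.4 and 29.2 CPM in control mice, which overlapped both. It fell by 0.35 on the log2 scale (SE 0.08; edgeR adjusted p = 0.0812) and kept its call in all analyses that left out 1 library. Hoxd9 and Hoxd10 fell by 0.68 (SE 0.22; edgeR adjusted p = 0.194) and 0.51 (SE 0.17; edgeR adjusted p = 0.197). Their calls were less firm, since Hoxd9 lost its call in 13 of the 23 alternatives in which it was tested and Hoxd10 in 10 of 24. The count was 1 without obese replicate 1, 2 or 5 or formerly obese replicate 1, 3 or 5, and 5 without formerly obese replicate 2. Hoxd9 lost its call with DESeq2, without the filter on low counts, with only these groups in the fit, with a replicate block, with the GC trend removed, and without obese replicate 1, 2 or 5 or formerly obese replicate 1, 3, 4 or 5, and Hoxd10 without control replicate 2, 3 or 5, obese replicate 1, 2 or 5 or formerly obese replicate 1, 3 or 5.

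The remaining genes did not pass the test against obese mice. All 8 genes from Hoxb2 to Hoxb9 were higher in formerly obese mice, with a median of 0.24 (0.13 without formerly obese replicate 1) and 0 called, while 51.0% of all genes were higher. In groups 10 to 13, 7 of 8 genes were lower, with a median of -0.22, while 49.0% of all genes were lower, the exception being Hoxd12 at 0.31 (SE 0.22). Hoxb13 and Hoxd13 differed by -0.22 (SE 0.08) and -0.22 (SE 0.12), with edgeR adjusted p-values of 0.242 and 0.459. The comparisons against control share the control libraries, and those of formerly obese mice share the formerly obese libraries, so that they are not independent of each other.

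Markers of other cell types were read in the same libraries. All 7 colonocyte markers (genes of the absorptive surface cells) had higher levels in formerly obese than in control mice, 4 of them called. Their median log2 change was 0.41. Over all genes tested, 49.8% had higher levels in this comparison and 1.85% were called higher. The 4 called markers were Slc9a3 (0.74, edgeR adjusted p = 0.0453), Car4 (0.34), Krt20 (0.55) and Slc26a3 (0.41). The sum over the 7 ran from 6485 to 12780 CPM in control, 7264 to 11920 in obese and 9769 to 15350 CPM in formerly obese mice. Slc26a3 was at 818 to 1311 CPM in control and 1354 to 1764 CPM in formerly obese mice. Car4 was at 477 to 675 CPM in control and 698 to 787 CPM in formerly obese mice. The ranges of the other colonocyte markers overlapped between these groups. The share of all genes separated upward in this way is not given here. All 13 tested small intestine enterocyte markers also had higher levels against control, 5 of them called, among them Rbp2 (0.56), Apob (0.43), Sis (0.71) and Fabp2 (0.60). In obese against control mice 4 of these 13 were called, all higher (Fabp6, Apob, Enpep and Alpi), and 0 of 7 colonocyte markers. Of all genes, 1.58% were called in that comparison. The sum over all 18 small intestine enterocyte markers was 1577 to 1890 CPM in control and 1760 to 2094 CPM in obese mice. It was 1992 to 2257 CPM in formerly obese mice. In formerly obese against obese mice 4 colonocyte markers rose (Slc26a3, Car4, Slc9a3 and Guca2a). The enteroendocrine hormone Pyy fell by 0.35 on the log2 scale (edgeR adjusted p = 0.163). In that comparison 2.65% of all genes were called (1.42% lower). No goblet or enteroendocrine marker was called against control, and no endothelial or glial one. Fibroblast markers were low, with a summed level of 2.34 to 10.9 CPM in control, 6.78 to 17.4 CPM in obese and 6.02 to 30.7 CPM in formerly obese mice, with 4 of 4 tested markers higher in formerly obese than in control mice (median 1.09) and 0 called. The control mice with the lowest summed fibroblast markers, replicates 4 (2.34 CPM) and 2 (2.95 CPM), also had the lowest summed Hoxb2 to Hoxb9 level (170.0 and 147 CPM). Control replicate 1, with the highest control fibroblast sum (10.9 CPM), had a Hoxb2 to Hoxb9 sum of 196 CPM, below those of control replicates 3 and 5. Obese replicate 3 had the highest of both sums in its group (17.4 and 219.8 CPM). Obese replicate 2 had the lowest (6.78 and 181.2 CPM), with obese replicate 4 close to it in the Hox sum (8.86 and 181.6 CPM). Formerly obese replicate 2 had the lowest of both in its group (6.02 and 204 CPM). Formerly obese replicate 3, with the highest fibroblast sum (30.7 CPM), had a Hoxb2 to Hoxb9 sum of 215 CPM. Control replicate 5 and formerly obese replicate 1 had the highest Hoxb2 to Hoxb9 sums of their groups (213 and 238 CPM). Their fibroblast sums were 6.175 and 7.63 CPM. Immune markers summed to 25.0 to 81.6 CPM in control, 33.7 to 93.6 CPM in obese and 47.8 to 286 CPM in formerly obese mice, with 0 of 5 tested markers called. The part of these cell types in the Hox results was not tested.

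**Figure D4:**
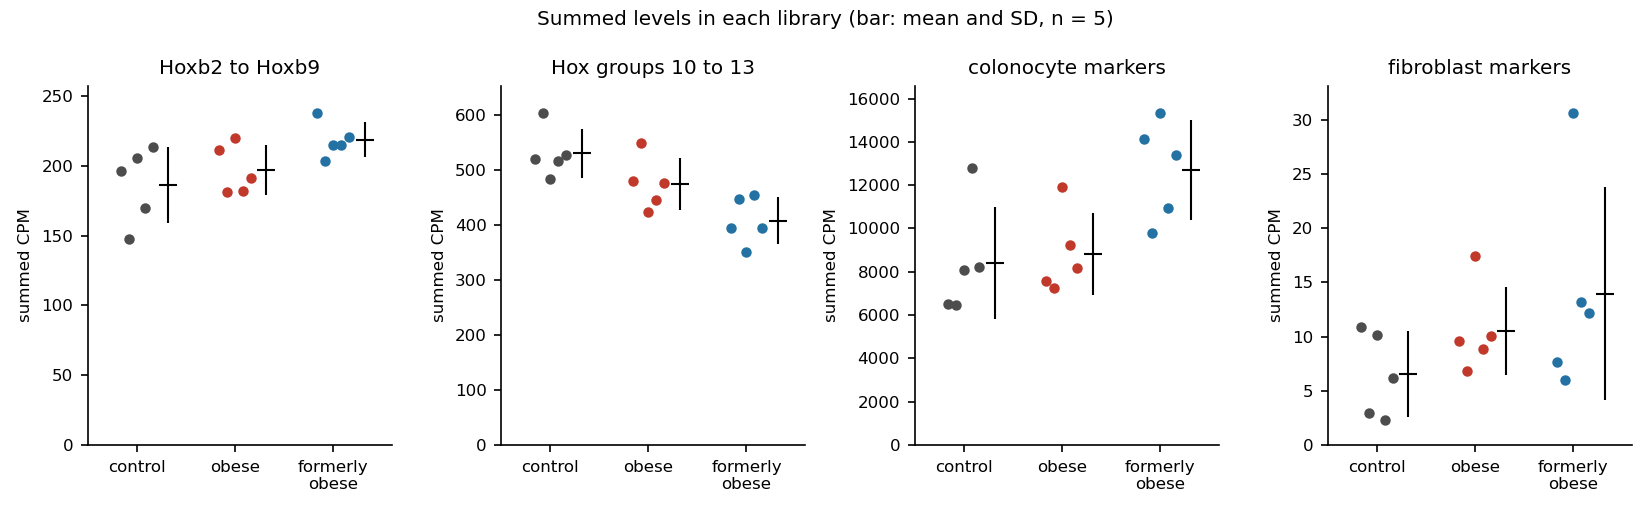
Summed CPM (axis from 0) of Hoxb2 to Hoxb9, of Hox groups 10 to 13, of 7 colonocyte markers and of 6 fibroblast markers in each of 15 libraries, with mean and SD of 5 mice as a bar. The sum of groups 10 to 13 is 484 to 605 CPM in control and 351 to 455 CPM in formerly obese mice. The colonocyte sum is 6485 to 12780 CPM in control and 9769 to 15350 CPM in formerly obese mice.

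Few genes that work with HOX proteins passed the test. Of the TALE cofactors, 5 of 9 were tested and 0 were called against control. In formerly obese against obese mice 1 of the 5 was called, against 2.65% of all genes. Meis3 rose in formerly obese against obese mice, from 7.54 ± 0.86 to 9.67 ± 0.92 CPM (log2 change 0.36, SE 0.12; edgeR adjusted p = 0.175), and stood at 9.58 ± 1.55 CPM in control mice. Among 14 tested transcription factors of gut regions, 1 was called, Hnf4g, a nuclear receptor of enterocytes, which rose to 86.7 ± 11.3 CPM in formerly obese mice against 72.1 ± 3.91 CPM in control mice (log2 change 0.27, SE 0.08; edgeR adjusted p = 0.0762). Of all genes tested, 3.72% were called in that comparison. Cdx1 and Cdx2, regulators of intestinal identity, were not called and differed by -0.05 and 0.09 in the same comparison.

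Regulators of Hox chromatin were all tested (25 genes), with a median log2 change of 0.02 in formerly obese against control mice. Of the 25, 2 were called there, both lower, while 1.87% of all genes were called lower. Cbx7, a subunit of Polycomb repressive complex 1, fell from 32.3 ± 4.67 to 26.6 ± 2.07 CPM (log2 change -0.28, SE 0.09; edgeR adjusted p = 0.126). Against obese mice 3 of the 25 were called, all lower, while 1.42% of all genes were called lower. They included Kdm6b (-0.29), a demethylase that removes the Polycomb mark, and Cbx8 (-0.37), another Polycomb subunit. In obese against control mice 0 of 25 were called, against 1.58% of all genes.

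Of 27 other annotated genes inside the clusters or within 100 kb of them, 12 were tested. In formerly obese against control mice 2 of the 12 were called, both lower, against 3.72% of all genes tested (1.87% lower). Both lay beside a group 13 gene that was also called lower. Of the 12, 9 had lower levels, as had 50.2% of all genes. Hottip, a noncoding RNA that starts beside Hoxa13 on the opposite strand, fell from 51.8 ± 9.28 to 39.7 ± 7.55 CPM (log2 change -0.39, SE 0.13; edgeR adjusted p = 0.119). Gm11538, a gene downstream of Hoxb13, fell from 19.4 ± 3.91 to 13.6 ± 2.23 CPM (-0.52, SE 0.14; edgeR adjusted p = 0.0615) and also fell against obese mice (-0.44, SE 0.14; edgeR adjusted p = 0.157). The median over the 12 neighbours was -0.14 against control. Evx1, which lies beyond Hoxa13, and Lnp and Mtx2, which flank cluster d, were not called (-0.26, -0.14 and 0.02).

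DNA methylation near the clusters was available as the authors' list of differentially methylated regions (DMRs) between obese and control mice from whole-genome bisulfite sequencing, which holds positions and directions and no value per mouse. Of 8199 DMRs, 19 lay in a Hox cluster or within 20 kb of one, 7 with more methylation in obese mice (hyper) and 12 with less (hypo). Cluster a held 5 (3 hyper, 2 hypo), cluster b 4 (1 hyper, 3 hypo), cluster c 6 (2 hyper, 4 hypo) and cluster d 4 (1 hyper, 3 hypo). Between the outermost genes of the clusters there were 16, of which 11 were hypo. The list as a whole had 4123 hyper and 4076 hypo DMRs. Cluster c, which gave almost no counts, held no fewer DMRs than an expressed cluster, and formerly obese mice are not in the list. The paper names Hoxb13 as an example of changes that persisted in formerly obese mice.

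The sequences of 3 DMRs are shown because they lie closest to the start of a gene called in formerly obese mice. A hyper DMR of 16 bases lies in the intron of Hoxb13 at chr11:96195861-96195876, 1507 bases after the gene's start. A hypo DMR of 8 bases lies 258 bases before the start of Hoxd10 at chr2:74691630-74691637. A further hypo DMR of 5 bases lies in a coding exon of Hoxd10 at chr2:74694294-74694298, 2405 bases after the start. Each sequence is the plus strand of GRCm38 (mm10), 5′ to 3′, with 60 bases on either side, and capitals mark the DMR, which begins and ends on a CG.
Hoxb13 intron: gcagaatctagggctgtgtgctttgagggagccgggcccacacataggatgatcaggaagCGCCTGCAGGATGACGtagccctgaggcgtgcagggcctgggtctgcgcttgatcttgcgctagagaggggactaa
Hoxd10 upstream: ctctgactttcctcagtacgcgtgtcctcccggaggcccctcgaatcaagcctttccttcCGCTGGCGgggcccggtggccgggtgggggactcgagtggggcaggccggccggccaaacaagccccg
Hoxd10 coding exon: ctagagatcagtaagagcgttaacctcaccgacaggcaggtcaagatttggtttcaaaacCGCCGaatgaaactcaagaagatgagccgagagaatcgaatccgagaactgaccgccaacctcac
The windows hold 6, 12 and 8 CG dinucleotides. Neither gene was called in obese against control mice, the groups that the DMRs compare, with log2 changes of -0.14 (SE 0.08) for Hoxb13 and 0.001 (SE 0.17) for Hoxd10. Among the other DMRs, 1 lay in a coding exon of Hoxa6 (hyper, chr6:52206576-52206579), 1 in an intron of Hoxb3 (hypo, 10472 bases after the start), 1 lay 5063 bases before Hoxd13 (hyper) and 1 lay 5896 bases before Hoxa13 (hypo). Hoxd12, the gene called in obese mice, was not the nearest gene of any DMR. The targeted bisulfite amplicons held 233 CpGs, of which 0 lay within 100 kb of a Hox cluster, and the nearest was 1620580 bases from cluster d.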

How the data were processed

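RNA-seq covered 15 libraries of colonic epithelium, 5 mice per regimen. The authors mapped paired reads of stranded mRNA libraries to mm10 with TopHat2 and deposited one table of gene counts made with HTSeq (submitters' processing notes: TopHat2 2.0.4, DESeq2 1.2.10, Bismark 0.7.8 and 0.14.0, bedtools 2.19.0). The strand mode and annotation release were not given in the sources used here, so overlapping genes are uncertain. Also deposited by the authors were methylation levels per CpG of bisulfite amplicons as a fraction, positions of WGBS regions, and tables of their own DESeq2 comparisons (log2 fold changes and p-values), which were not used. The design had assumed percent values for the amplicons. The table holds fractions, and no amplicon lay near a Hox cluster, so no methylation test was run.

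Counts of all genes were tested in R 4.3.3 with edgeR 4.0.16 (filterByExpr, TMM, quasi-likelihood F test, group as the only term, all 15 libraries in one fit, Benjamini-Hochberg adjustment over 12961 genes). Calls used the study's cutoffs, a fold change over 1.2, p under 0.01 and adjusted p under 0.25. Fits were tested on simulated data. Depth was 15230391 to 22762095 counts per library, and intervals and limits from counts cover counting error only. Exon lengths, GC content, coordinates (1-based) and sequences came from RefSeq annotation and sequence of GRCm38.p6, the assembly of mm10. Fold changes are ratios of group means from the fit on the log2 scale.

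All 39 Hox genes were members. Values per library were given for every member called in at least 1 comparison and for the most abundant gene per kb of each cluster. Hoxb2 was added after its values were seen. Genes of other lists (TALE cofactors, transcription factors of gut regions, chromatin regulators, cluster neighbours, cell type markers) were named where called, at most 4 per list and comparison, smallest p first. Cdx1, Cdx2, Evx1, Lnp and Mtx2, none of them called, were named for their role or place. Single values of some genes are not reported here. Members and lists were chosen with earlier results of these data known. The replicates were separate mice. Alternatives were DESeq2 1.42.0, other scalings and filters, only the groups compared, a replicate block, a stricter cutoff, GC correction and leaving out each library.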

Additional observations from a re-analysis of the deposited data

Results flagged for a closer look

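Each tested Hox gene was checked within each regimen for 1 library that stood apart from the other 4 (Dixon's test, critical ratio 0.71 for 5 values). Chance flags about 1 in 20 groups, and 5 of 84 groups were flagged here. Control replicate 2 had 60.8 CPM of Hoxa9, against 42.7 to 46.8 CPM in the other control mice. Control replicate 4 had 19.6 CPM of Hoxa3, against 24.2 to 26.1 CPM, and 10.7 CPM of Hoxd11, against 12.7 to 13.3 CPM. Obese replicate 2 had 3.97 CPM of Hoxa2, against 5.37 to 5.91 CPM in the other obese mice. Obese replicate 4 had 2.93 CPM of Hoxa6, against 4.08 to 4.66 CPM. No formerly obese library was flagged. Of these genes, Hoxd11 was called in formerly obese against control mice, and its call held without control replicate 4.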

How the results depend on the processing

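Each comparison was repeated under 24 alternatives, all planned. The 20 changes followed through them were those called in the analysis above or in at least 1 alternative. None of the 20 turned direction. They were chosen by their calls and the alternatives share libraries, so this is no test of their direction. The number of called Hox genes stayed within 1.5 times its value in 17 of 24 alternatives for obese against control mice (1 called), in 19 of 24 for formerly obese against control mice (9 called) and in 16 of 24 for formerly obese against obese mice (3 called). It ranged from 0 to 2, from 3 to 11 and from 1 to 5 when 1 library was left out. A cutoff of 0.05 on the adjusted p alone left 0, 3 and 0, where 2, 14 and 8 Hox genes had an unadjusted edgeR p under 0.05. DESeq2 called 1, 9 and 2. A replicate block gave 1, 9 and 3, and Hoxd13 took the place of Hoxd12 in obese against control mice and Hoxb8 that of Hoxd9 in formerly obese against obese mice. The numbers were not taken as pairs, since over 15 same-numbered pairs the correlation of deviations ran from -0.231 to 0.333 with 5 over 0.1, and 6 of 15 libraries correlated best with their own number. Hoxa9, not called otherwise, was called against both groups without formerly obese replicate 2, as was Hoxd11 against obese mice. The number of DMRs was 16 without a flank around the clusters and 28 with 100 kb. The planned test of bisulfite amplicons and its alternatives gave no value, since no amplicon lay near a cluster. Depth limits cluster c, Hoxb1 and Hoxd1, for which no difference was testable.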
